A study of Homo sapiens with 30 samples.

Results

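Day 2 posterior neural ectoderm (pNE) was compared with day 4 cells grown from anterior neural ectoderm in midbrain medium (aNE_M), populations that are neither parent nor descendant of each other. The pair was chosen by the overlap of these same peak lists, already known to exceed that of other pairs, so the overlap is a description. Peaks of all 10 lists on chromosomes 1 to 22 were merged where they shared at least 1 bp, and a list was called open at a merged region where it had a peak. Of 476170 merged regions, 230662 were open in pNE or aNE_M. Of these, 154573 were open in both (32.5% of all regions), 31852 in pNE and not aNE_M (6.69%) and 44237 in aNE_M and not pNE (9.29%).

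The study profiled open chromatin in H1 cells, a wild-type human embryonic stem cell line, and in ectoderm and neural cells made from them. It used OmniATAC-seq, in which the Tn5 transposase cuts accessible DNA and tags it for sequencing. The labels list 30 libraries from 50000 cells each, 3 for each of 10 populations, and the comparison concerns 6 of them. Each population has 1 peak list with positions only, so replicate error cannot be given, no test was possible, and read depth is unknown.

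Every population except the pluripotent cells (hPSC, day 0) passed through definitive ectoderm (DE, day 1). For DE the cells had 24 hours of A8301, a TGF-beta receptor inhibitor, Trametinib, a MEK inhibitor, C59, which blocks WNT secretion, and LDN193189, a BMP receptor inhibitor. For pNE (day 2) the DE cells were replated in A8301, LDN193189, the retinoic acid receptor agonist TTNPB at 50 nM, FGF2 at 20 ng/mL, the tankyrase inhibitor XAV939 and the survival compound Thiazovivin. For anterior neural ectoderm (aNE, day 2), the parent of aNE_M, they were replated in A8301, LDN193189, C59 and Thiazovivin. Midbrain medium then gave aNE_M from aNE and pNE_M from pNE (day 4), and telencephalon and hindbrain media gave aNE_T, aNE_H, pNE_T and pNE_H. The composition of the midbrain medium was not given in the sources used here. Cells were plated at 37500 per square cm for aNE and pNE, at 75000 for the aNE descendants and at 150000 for the pNE descendants, so density, day and medium cannot be told apart. In such bulk samples, fewer cells with an open site and less opening per cell also cannot be told apart.

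Retinoic acid is a posteriorising signal of the early neural plate: its receptors bind DNA with RXR partners and switch on the 3' HOX genes of the hindbrain. WNT and FGF signals also posteriorise, and both pattern the midbrain and the boundary between midbrain and hindbrain, where OTX2 on the anterior side meets GBX2 on the posterior side and EN1, EN2, PAX2, FGF8 and WNT1 are active. Open chromatin marks promoters and enhancers, many of which are open before or without transcription of the gene.

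Promoters showed where the populations parted at single genes. Promoter windows of 300 bp, from 250 bp before to 50 bp after the RefSeq start, were taken for 15101 protein-coding genes on chromosomes 1 to 22 (RefSeq, GRCh38.p14). The pNE list was open at 11409 of them (75.6%), the aNE_M list at 11453, and both at 11243. Of 128 promoters of listed genes (9 lists of regional, signalling and lineage genes, described further on), 99 were open in both, 6 in pNE and not aNE_M, 1 in aNE_M and not pNE, and 22 in neither. The 7 that differed were the promoters of HOXA2, HOXB1, CYP26A1, CYP26C1, NANOG and NKX2-1 on the pNE side and of WNT8B on the aNE_M side.

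The 4 of these with no peak of the other list within 200 bp are printed, chosen after their values were seen. They are HOXA2 (chr7:27102634-27102933, minus strand), HOXB1 (chr17:48530962-48531261, minus strand), NANOG (chr12:7789152-7789451, plus strand) and WNT8B (chr10:100462759-100463058, plus strand). Capitals mark matches to 1 of 7 searched motifs: a HOX and PBX match in HOXA2, a TCF/LEF match in HOXB1 and an OTX match in NANOG, with none in WNT8B.
HOXA2: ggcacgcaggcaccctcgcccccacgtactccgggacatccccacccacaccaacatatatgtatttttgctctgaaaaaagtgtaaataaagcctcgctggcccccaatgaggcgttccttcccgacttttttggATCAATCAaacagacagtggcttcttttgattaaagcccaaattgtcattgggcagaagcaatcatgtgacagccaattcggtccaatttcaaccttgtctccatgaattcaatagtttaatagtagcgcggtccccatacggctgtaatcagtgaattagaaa
HOXB1: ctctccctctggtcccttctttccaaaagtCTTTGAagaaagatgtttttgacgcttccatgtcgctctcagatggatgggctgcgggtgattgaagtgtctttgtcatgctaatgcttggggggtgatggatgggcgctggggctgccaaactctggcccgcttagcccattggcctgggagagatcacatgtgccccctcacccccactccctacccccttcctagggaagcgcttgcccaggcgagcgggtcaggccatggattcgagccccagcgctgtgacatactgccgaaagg
NANOG: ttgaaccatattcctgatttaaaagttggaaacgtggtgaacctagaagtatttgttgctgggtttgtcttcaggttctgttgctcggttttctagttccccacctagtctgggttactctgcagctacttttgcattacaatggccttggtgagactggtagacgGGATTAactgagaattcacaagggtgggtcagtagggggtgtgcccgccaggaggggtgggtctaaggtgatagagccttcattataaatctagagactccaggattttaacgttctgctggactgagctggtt
WNT8B: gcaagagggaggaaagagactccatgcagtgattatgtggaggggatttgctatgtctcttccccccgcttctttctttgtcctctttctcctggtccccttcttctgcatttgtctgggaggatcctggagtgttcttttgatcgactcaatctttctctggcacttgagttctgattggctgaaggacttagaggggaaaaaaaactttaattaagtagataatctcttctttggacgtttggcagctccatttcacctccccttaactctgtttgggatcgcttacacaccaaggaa

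HOXA2, a patterning gene of the second pharyngeal arch and hindbrain, had promoter peaks only in pNE and its 3 descendants: 208 bp wide in pNE, 458 bp in pNE_T, 270 bp in pNE_M and 2560 bp in pNE_H. The nearest aNE_M peak lay 418 bp from the window and the nearest aNE peak 33 bp, and all 10 lists had a peak somewhere in the merged region. So the promoter differed between the lists although the merged region counted as shared.

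HOXB1, the HOX gene of the fourth rhombomere and a direct retinoic acid target, had a promoter peak in hPSC (800 bp), DE (237 bp), aNE (356 bp) and pNE (726 bp). The peak was also present in pNE_T (796 bp), pNE_M (617 bp) and pNE_H (678 bp), and in none of the 3 aNE descendants. The nearest aNE_M peak was 2166 bp away. The posterior lineage thus held a peak at HOXB1 throughout, and the anterior lineage held one up to day 2.

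NANOG, a core pluripotency factor, was open at its promoter on days 0 to 2 and in aNE_T. Its peak was 680 bp in hPSC, 317 bp in DE, 296 bp in aNE, 299 bp in pNE and 194 bp in aNE_T, and the nearest aNE_M peak was 981 bp away. The NANOG promoter separated pNE from aNE_M and from pNE_M alike.

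WNT8B, a WNT ligand of the forebrain, had the reverse pattern. Its promoter peak was 275 bp in DE, 308 bp in aNE, 739 bp in aNE_T and 523 bp in aNE_M. It was absent from pNE, where the nearest peak was 5377 bp away, and from all pNE descendants. It was also absent from hPSC and from the aNE descendant aNE_H. The WNT8B peak was therefore shared by aNE_M and its parent.

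The other 3 lay nearer to the limit of the window. CYP26A1, a retinoic acid-degrading enzyme, had a promoter peak of 1068 bp in pNE and 1157 bp in aNE, while an aNE_M peak ended 35 bp outside the window. Its neighbour CYP26C1, of the same enzyme family, had a 166 bp peak in pNE and an aNE_M peak 61 bp outside. NKX2-1, a ventral forebrain factor, had a 181 bp peak in pNE and an aNE_M peak 164 bp outside.

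Most marker promoters that were matched had the same state in both lists. Over all promoters 74.5% were open in both. Of 16 midbrain and boundary promoters matched, 13 were open in both lists and 11 in all 10 lists, among them EN2, WNT1 and LMX1A. Of 11 hindbrain promoters, 3 were open in both lists, 2 (HOXA2 and HOXB1) in pNE and not aNE_M, and 6 in neither. All 14 neural promoters, SOX1 and SOX2 among them, were open in both. So were 12 of 14 pluripotency promoters and 9 of 13 of neural crest, surface ectoderm and mesendoderm. The table has 1 start per gene: the PAX2 window held no peak in any list and the OTX2 window held one in DE only.

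The shared regions were then split by whether the parent of aNE_M and the midbrain descendant of pNE also had them. Of the 154573 shared regions, 101029 (65.4%) were open in both aNE and pNE_M, 14775 (9.56%) in aNE and not pNE_M, and 22732 (14.7%) in pNE_M and not aNE. The remaining 16037 were open in neither, 10.4% of the shared regions (Wilson 95% interval 10.2% to 10.5%, which covers counting of regions only) and 3.37% of all regions. These 16037 are called crossover regions below: pNE had them and its midbrain descendant did not, while aNE_M had them and its parent did not.

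More regions were held by pNE and aNE_M alone than by any other pair of these 4 lists. As deposited, 9987 were open only in aNE_M and pNE_M among the 4, 6299 in pNE and pNE_M, 6129 in pNE and aNE, 5629 in aNE_M and aNE, and 2226 in aNE and pNE_M. The lists differ in length, from 162041 peaks in aNE to 199638 in pNE, 209967 in pNE_M and 211358 in aNE_M. With the widest 162041 peaks of each list, the pNE and aNE_M pair held 10007 regions, the pNE and aNE pair 8367 and the aNE_M and aNE pair 6432. With as many peaks drawn at random, the pNE and aNE_M pair held 13321 and the pNE and aNE pair 12447. The pair came first in all 3 settings, and the gap to the next was narrowest with random peaks.

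**Figure D1:**
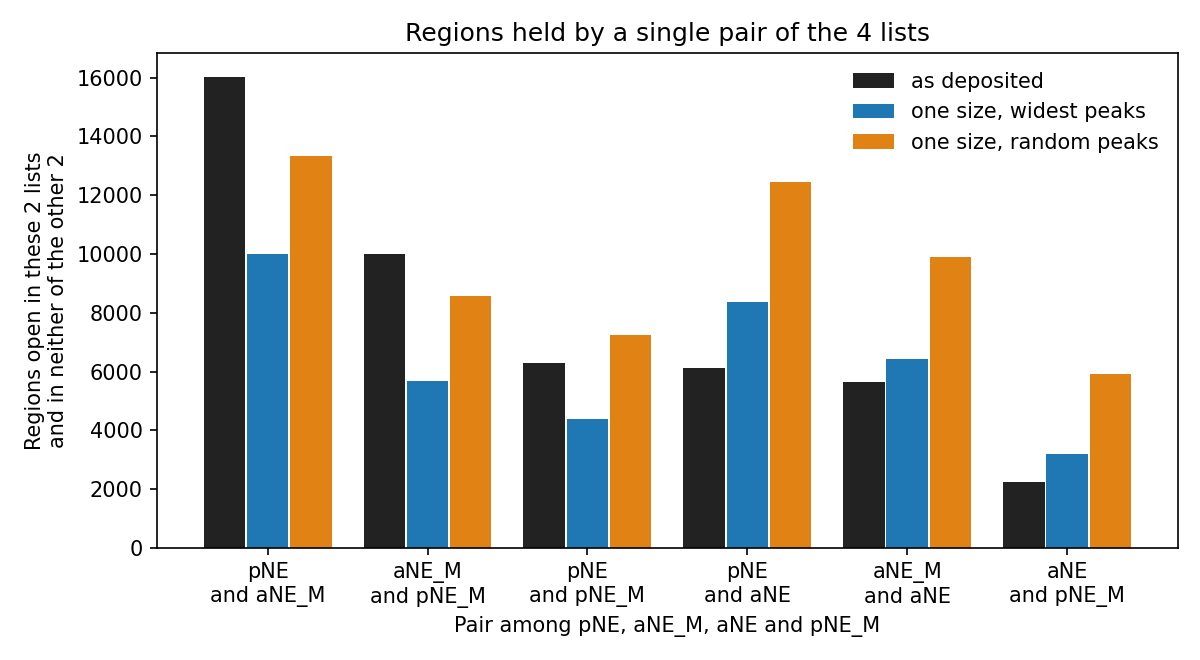
Regions (vertical axis, number) open in the 2 named lists and in neither of the other 2 of pNE, aNE_M, aNE and pNE_M, for lists as deposited and for 2 ways of cutting each list to 162041 peaks. The pNE and aNE_M pair stands highest at 16037, 10007 and 13321 regions.

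At one list size by width, the shared regions numbered 123382, and the Jaccard index (shared over open in either) was 0.670 in both settings. It ranked first of 45 pairs as deposited and second by width, behind aNE_M with aNE_H. With random peaks it was 0.473, at rank 5. Crossover regions were 8.11% of the shared regions and 2.86% of all regions by width, and the former share was 13.4% with random peaks. Of the crossover regions, 7193 (44.9%) overlapped a crossover region found by width at one size. In the upper 50% of each list by width, which drops narrow peaks by construction, only 1627 (10.1%) did. With random peaks 62.3% did, with coverage of at least 50% of a region 56.9%, and with windows of 500 bp 93.4%. The narrowest peak of a list is 1 trace of how it was called: it was 124 bp in pNE, 122 to 126 bp in aNE and its descendants, and 109 to 115 bp in the pNE descendants. So pNE sat with the aNE family in this measure, and its part in the overlap was not tested.

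Few crossover regions depended on a near miss in position. A near miss of the peak threshold cannot be seen in lists without scores. In 15765 of them (98.3%) a pNE and an aNE_M peak overlapped directly, by a median of 150 bp, and 272 were joined only through peaks of other lists. The overlap was 1 to 10 bp in 44. An aNE peak lay within 200 bp of 261 and a pNE_M peak within 200 bp of 270, and the smallest gaps were 3 bp and 1 bp. The median gap was 5.16 kb to an aNE peak and 4.00 kb to a pNE_M peak.

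Crossover regions were narrow, and like the other regions not open in all 4 lists they lay mostly away from gene ends. The median peak was 189 bp in pNE and 206 bp in aNE_M, against 465 bp and 477 bp in regions open in all 4 lists. Of their pNE peaks 81.8% were narrower than the median of the pNE list, and of their aNE_M peaks 74.8% were narrower than that of aNE_M. Of them 8.01% lay within 1 kb of a gene end, against 23.2% of regions open in all 4 and 11.2% of all regions. The share was 8.19% in regions shared with pNE_M and not aNE, 9.48% in those shared with aNE and not pNE_M, 8.55% in those open in pNE and not aNE_M and 8.36% in the reverse. Inside a gene lay 64.3%, beside 63.6% of all regions. Among shared regions the crossover share ran from 6.96% on chromosome 19 to 13.0% on chromosome 21.

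The other 6 lists took no part in defining the crossover regions. The hindbrain-medium descendant of aNE, aNE_H, had 70.3% of the crossover regions open, against 38.9% of all regions. The pNE_H list had 66.8%, against 61.0% of all regions. In aNE_T the share was 41.3% (38.1% of all), in DE 36.4% (46.9%), in pNE_T 31.2% (41.3%) and in hPSC 29.9% (40.5%). Crossover regions were thus above the level of all regions most in aNE_H, and below it in hPSC, DE and pNE_T. They are open in pNE and aNE_M by definition and most regions are not, so all regions are not a matched background. At promoters, aNE_H was open at 99.0% of those shared by pNE and aNE_M and at 76.1% of those in crossover regions. It was open at 85.5% of those shared with pNE_M and not aNE, and 71.8% of those shared with aNE and not pNE_M.

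At one list size by width, aNE_H kept its place with 73.9% against 44.0% of all regions. The pNE_H share fell to 40.7%, below the 45.4% of all regions there. The others were 39.7% in aNE_T, 28.1% in pNE_T, 23.0% in hPSC and 21.3% in DE. With random peaks aNE_H again came first, at 61.1%. In each of the 3 settings the difference from all regions was largest in aNE_H. The aNE_H and aNE_M lists share a parent, and the Jaccard index of the 2 was also 0.670.

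Of the crossover regions as deposited, 1980 (12.3%) were open in aNE_H and pNE_H and in no other of the 6, 1691 (10.5%) in aNE_H alone and 660 (4.12%) in pNE_H alone. At one size by width aNE_H alone came first with 1920 (19.2%), before aNE_H and pNE_H with 921 (9.20%) and pNE_H alone with 219 (2.19%). As deposited, another 625 (3.90%) were open in none of the 6, so that pNE and aNE_M were the only lists of 10 that had them, and 575 were open in all 6.

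**Figure D2:**
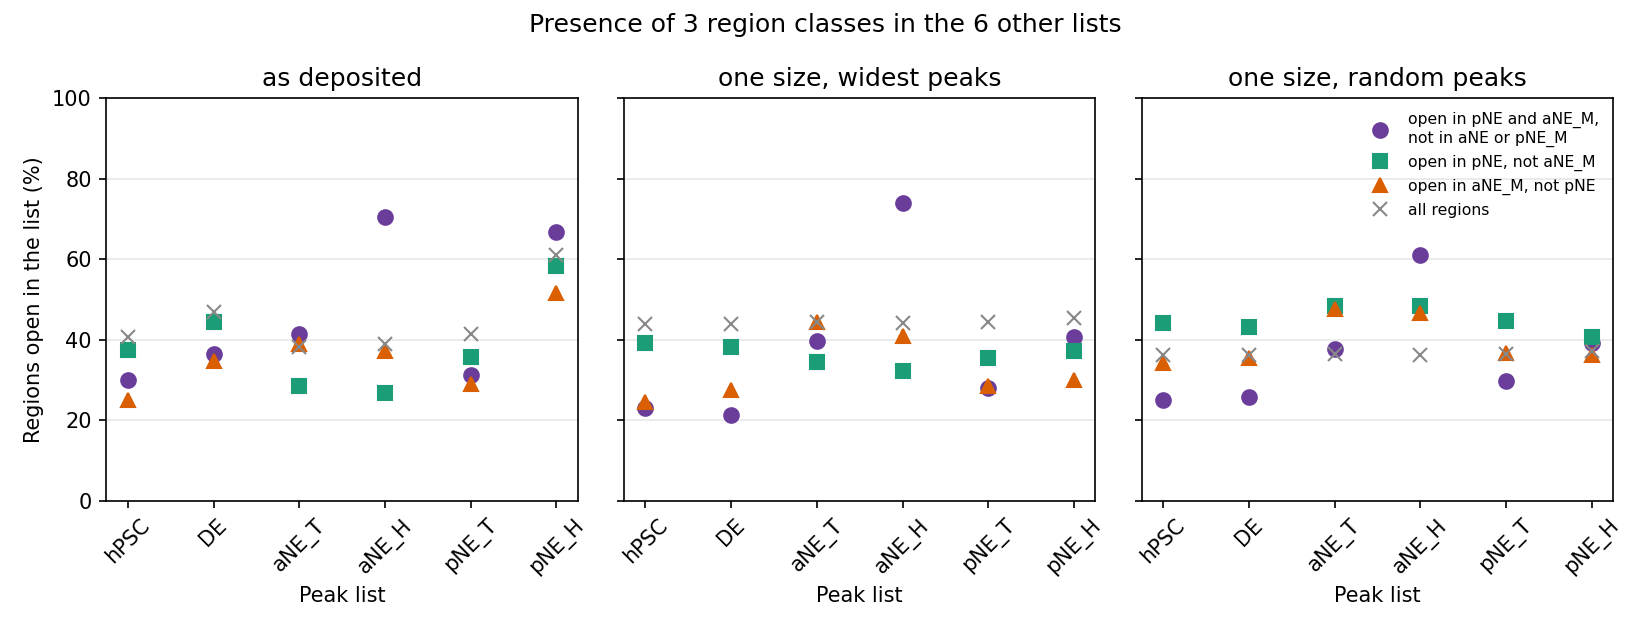
Share of regions open (vertical axis, percent) in each of the 6 lists whose own state did not define the classes. Panels show lists as deposited (left), the widest peaks at one size (middle) and random peaks at one size (right). Circles for regions open in pNE and aNE_M and in neither aNE nor pNE_M reach 70.3%, 73.9% and 61.1% in aNE_H, while crosses give all regions.

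The regions that differed were split in the same way. Of the 31852 open in pNE and not aNE_M, 6129 (19.2%) were open in aNE and not pNE_M, 6299 (19.8%) in pNE_M and not aNE, 3884 (12.2%) in both and 15540 (48.8%) in neither. Of the 44237 open in aNE_M and not pNE, 5629 (12.7%) were open in aNE and not pNE_M, 9987 (22.6%) in pNE_M and not aNE, 2878 (6.51%) in both and 25743 (58.2%) in neither. As deposited, pNE regions recurred about as often in aNE as in pNE_M, and aNE_M regions more often in pNE_M than in aNE. At one size by width, 8367 of the pNE regions were open in aNE and not pNE_M and 4374 the other way round. For the aNE_M regions the order turned, with 6432 open in aNE and not pNE_M and 5664 the other way round.

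The early populations had a larger share of the pNE regions than of the aNE_M regions, but not a larger share than of all regions. Regions open in pNE and not aNE_M were open in hPSC at 37.4% and in DE at 44.4%, and those open in aNE_M and not pNE at 25.0% and 34.6%. Both sets lay below the shares of all regions given above for hPSC and DE, the pNE regions slightly and the aNE_M regions further. The aNE_H list had 26.8% of the pNE regions and 37.2% of the aNE_M regions, and aNE_T had 28.4% and 38.9%. No other list had 3972 (12.5%) of the pNE regions and 6117 (13.8%) of the aNE_M regions. Median peak width was 173 bp in both sets. At one size by width, 54.0% of the pNE regions and 46.4% of the aNE_M regions overlapped a region of the same set, and the sets numbered 29731 (8.51%) and 31072 (8.89%). The excess on the aNE_M side was thus mostly absent once the lists had one size.

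By nearest gene end, 6774 of 19126 protein-coding genes (35.4%) had at least 1 crossover region. The genes with the highest numbers had from 241 to 599 regions each, and over all regions 3.37% were crossover regions. AUTS2, a neurodevelopmental gene whose protein binds Polycomb complexes, had 28 of its 573 regions in the class (4.89%). The teneurin adhesion receptors TENM3 and TENM2 had 25 of 599 and 20 of 451, and the synaptic adhesion genes LRRC4C and SDK1 had 21 of 398 and 20 of 279. The others were TAFA5 with 20 of 341, SORCS1 with 19 of 386, ARID1B, a subunit of BAF chromatin remodellers, with 18 of 293, NR2F2 with 17 of 312 and PTPRT with 17 of 241. The shares of these 10 genes ran from 4.17% in TENM3 to 7.17% in SDK1. NR2F2 encodes the nuclear receptor COUP-TFII, and its promoter had peaks in pNE (197 bp), aNE_M (139 bp) and pNE_M (188 bp) and none in aNE. At one list size these 10 genes had from 7 (NR2F2) to 20 (TENM3) crossover regions.

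Share rather than number put smaller genes first. Among 6263 genes with at least 20 regions, where the median share was 3.17%, DNAJC3, a co-chaperone of the endoplasmic reticulum, had 5 of 26 (19.2%). IDO2 had 4 of 23, USP35 5 of 29, and MAPT, which encodes the microtubule protein tau, 4 of 24. ADAM22, a synaptic receptor, had 7 of 45, the most regions of these 10. LOC128092248 had 4 of 24, AMZ1 4 of 25, SWAP70 5 of 32, and COL6A1 and EDN2 4 of 26 each. These shares rest on 4 to 7 regions, and at one size LOC128092248 had 0, AMZ1 and COL6A1 1 and ADAM22 4.

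Among regional and signalling genes the windows took in each gene with 50 kb on either side. As background, 52.9% of all protein-coding genes had at least 1 crossover region in this window, and the median gene had 2.22% of its regions in the class. Of the midbrain and boundary genes 16 of 20 had one, with a median share of 3.85%. Of the neural genes 13 of 18 had one (2.78%), of hindbrain genes 13 of 20 (1.98%), and of pluripotency genes 12 of 20 (3.08%). FGF feedback, WNT and the list of neural crest, surface ectoderm and mesendoderm each had 11 of 20. Retinoic acid genes had 10 of 20 and forebrain genes 9 of 19. At one size by width, midbrain and boundary had 10 of 20 beside 39.1% of all genes, WNT 10, neural 8 of 18 and forebrain 3 of 19. With each region counted once, crossover regions made up 4.21% of the regions in midbrain and boundary windows, against 3.37% of all regions. At one size the order turned, with 2.69% against 2.86%.

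In the midbrain and boundary list LMX1A, a factor of midbrain dopaminergic precursors, had 5 crossover regions (2 at one size). Its window held 37 open regions in pNE, 39 in aNE_M, 30 in aNE and 33 in pNE_M, with 36 to 47 in the other 6 lists. PAX2, an early boundary factor, had 4 (3 at one size), with 34 open regions in pNE, 36 in aNE_M, 25 in aNE and 31 in pNE_M. The boundary gene CNPY1 and the midbrain homeobox gene EN1 had 3 each, and EN1 had 17, 18, 16 and 15 open regions in the same order. At LMX1A, PAX2 and EN1 both pNE and aNE_M held more regions than aNE and pNE_M, which the choice of genes by crossover regions favours.

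Among hindbrain genes FGF3, a ligand made in the hindbrain, had 4 crossover regions of 27, and GBX1, MEIS1 and MEIS2 had 2 each (at one size 3 for FGF3, 2, 1 and 2). FGF3 held 22 open regions in pNE and in aNE_M and 17 in aNE and in pNE_M. Among forebrain genes VAX1, an eye and ventral forebrain factor, had 4 of 31, with 22 in pNE, 20 in aNE_M, 14 in aNE and 15 in pNE_M. LHX2 and PAX6 had 2 and EMX2 had 1. At one size VAX1 and LHX2 had 2 and PAX6 and EMX2 had 0. At both VAX1 and FGF3 pNE and aNE_M held more open regions than aNE and pNE_M, which the choice of genes by crossover regions again favours.

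In the retinoic acid list ALDH1A2, which makes retinoic acid in the trunk, had 4 of 30 crossover regions, and RDH10, which makes retinaldehyde, had 4 of 35, both 3 at one size. ALDH1A2 held 10 open regions in pNE, 13 in aNE_M, 7 in aNE and 11 in pNE_M. RDH10 held 17, 20, 11 and 15. The synthesis enzyme ALDH1A3 and the binding protein CRABP1 had 2 each (1 and 0 at one size), as had the degrading enzyme CYP26B1 (1 at one size). The synthesis enzyme ALDH1A1 had 0.

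In the FGF feedback list SPRED1, an inhibitor of RAS and MAP kinase signalling, had 6 of 38 crossover regions (15.8%; 4 at one size), the highest share of the 177 listed genes. Its window held 17 open regions in pNE and in aNE_M, 7 in aNE, 11 in pNE_M, 16 in hPSC, 12 in DE, 10 in aNE_T, 15 in aNE_H, 14 in pNE_T and 29 in pNE_H. Its relative SPRED2 had 4 (4 at one size), the FGF antagonist SPRY4 had 3, and the ligand FGF2 had 2 and none at one size. In the SPRED1 window no region was shared with only 1 of aNE and pNE_M: 5 were open in all 4 lists and 6 in pNE and aNE_M alone. The 6 lay at -45.4, -24.5, 9.50, 13.5, 49.7 and 82.3 kb from the RefSeq start, with negative distances upstream.

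Neural genes included POU3F3, a POU factor of neural progenitors, with 6 of 49 crossover regions, and 6 at one size. It held 25 open regions in pNE, 29 in aNE_M, 15 in aNE and 23 in pNE_M. CDH2, the neural cadherin, and ZNF521, a driver of neural conversion, had 5 each (2 at one size), and ZEB2 had 3. Of the pluripotency list VRTN had 5, ZFP42 4, the nuclear receptor ESRRB 3 and the NODAL co-receptor CRIPTO 2. At one size ZFP42 had none, VRTN 4, and ESRRB and CRIPTO 1 each. In the last list the neural crest factors PAX3 and SOX9 had 3 each, and MSGN1 and PAX7 2 each. SOX9 and MSGN1 had none at one size, PAX3 1 and PAX7 2. In the WNT list the pathway's DNA-binding factor LEF1 and the receptor-degrading ligase ZNRF3 had 3 each, and the R-spondin receptors LGR4 and LGR5 2 each. At one size LEF1, ZNRF3 and LGR4 had 2 and LGR5 had 1.

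The regions that differed leaned to aNE_M around midbrain and boundary genes and to pNE around hindbrain genes, as deposited and at one size by width, but not in every setting. Over all protein-coding genes 26.3% had more pNE regions in the window and 50.9% more aNE_M regions. Of midbrain and boundary genes 4 of 20 had more pNE regions and 14 more aNE_M regions (4 and 11 at one size). Of WNT genes 5 had more pNE regions and 15 more aNE_M regions (8 and 9 at one size). Of hindbrain genes 11 had more pNE regions and 4 more aNE_M regions (13 and 7 at one size). With random peaks midbrain and boundary genes stood at 9 and 10, and with peaks covering at least 50% of a region hindbrain genes stood at 8 and 8. Forebrain genes went from 3 and 7 to 9 and 4 at one size, FGF feedback genes from 6 and 9 to 8 and 7, and retinoic acid genes from 11 and 9 to 8 and 4. At one size 35.4% of all genes had more pNE regions and 38.2% more aNE_M regions.

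HOX windows overlap, so neighbours count the same regions. Counted once each, the hindbrain windows held 41 regions open in pNE and not aNE_M and 35 of the reverse, 53.9% on the pNE side, against 41.9% of such regions over all chromosomes. At one size by width it was 54.8% against 48.9%. The midbrain and boundary windows had 33.9% on the pNE side and 39.8% at one size.

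LEF1 had 0 regions open in pNE and not aNE_M and 12 of the reverse (3 and 9 at one size). Its window held 35 open regions in aNE_M and in aNE_H, 37 in pNE_T and pNE_H, 23 in pNE, 20 in aNE, 25 in aNE_T and pNE_M, 24 in hPSC and 30 in DE. Of those 12 regions 4 lay upstream of the RefSeq start, the nearest at -15.5 kb. LHX2, a forebrain and eye factor, had 0 and 9 (2 and 7 at one size), the WNT receptor FZD5 1 and 9 (1 and 7), and LMX1B, a boundary and dopaminergic factor, 3 and 11 (2 and 7). OTX2, the forebrain and midbrain determinant, had 0 and 5 (1 and 5), and PAX8, an early boundary factor, 0 and 6 (1 and 5).

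On the pNE side HOXA2 had 7 regions open in pNE and not aNE_M and 2 of the reverse, also at one size. HOXB1 had 5 and 1 (5 and 3 at one size), and MEIS1, a partner of HOX proteins, 7 and 1 (5 and 2). RARB, a retinoic acid receptor gene that retinoic acid itself switches on, had 22 and 10 (15 and 8). Other members of these lists went the other way as deposited. HOXD3 had 0 and 5 (0 and 3 at one size), HOXD4 0 and 4 (0 and 3) and IRX5 0 and 4 (1 and 3). RXRA had 2 and 9 (3 and 4), RARA 1 and 4 (2 and 3) and RARG 2 and 5 (0 and 0). RARB held 58 open regions in pNE, 46 in aNE_M, 36 in aNE and 75 in pNE_M, and 132 in pNE_H. FZD5, LMX1B, OTX2, PAX8, HOXA2, HOXB1, RARB, HOXD3, HOXD4, IRX5, RXRA, RARG and RARA were singled out here after their values were seen.

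**Figure D3:**
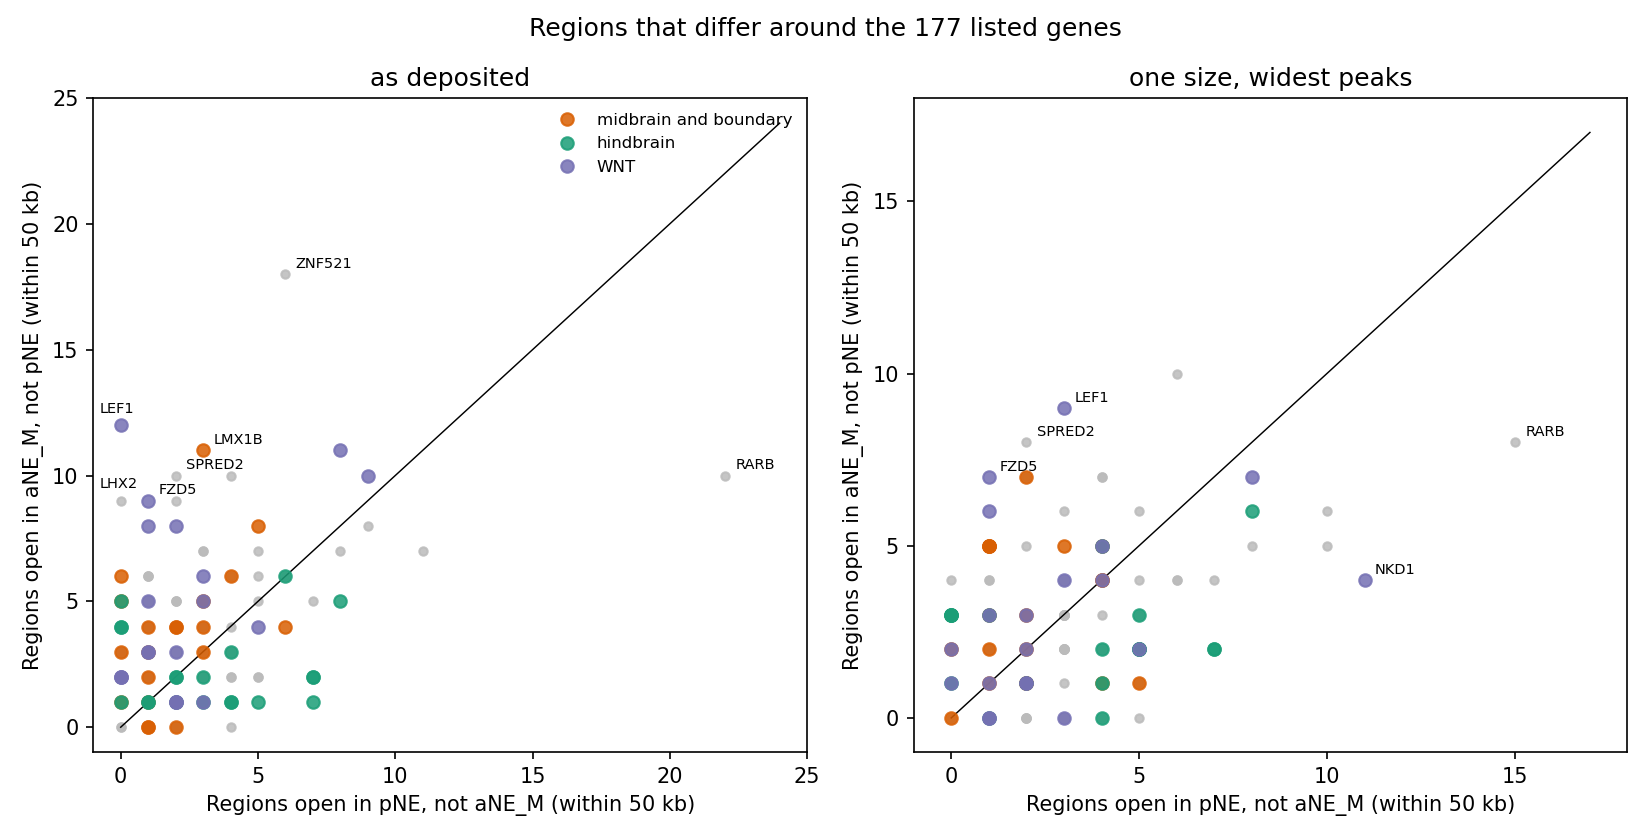
Each point is 1 of the 177 listed genes on chromosomes 1 to 22: regions within 50 kb open in pNE and not aNE_M (horizontal, number) and in aNE_M and not pNE (vertical, number), as deposited (left) and at one list size by width (right). The line marks equal numbers, with LEF1 at 0 and 12 on the left and 3 and 9 on the right, and RARB at 22 and 10, then 15 and 8.

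**Figure D4:**
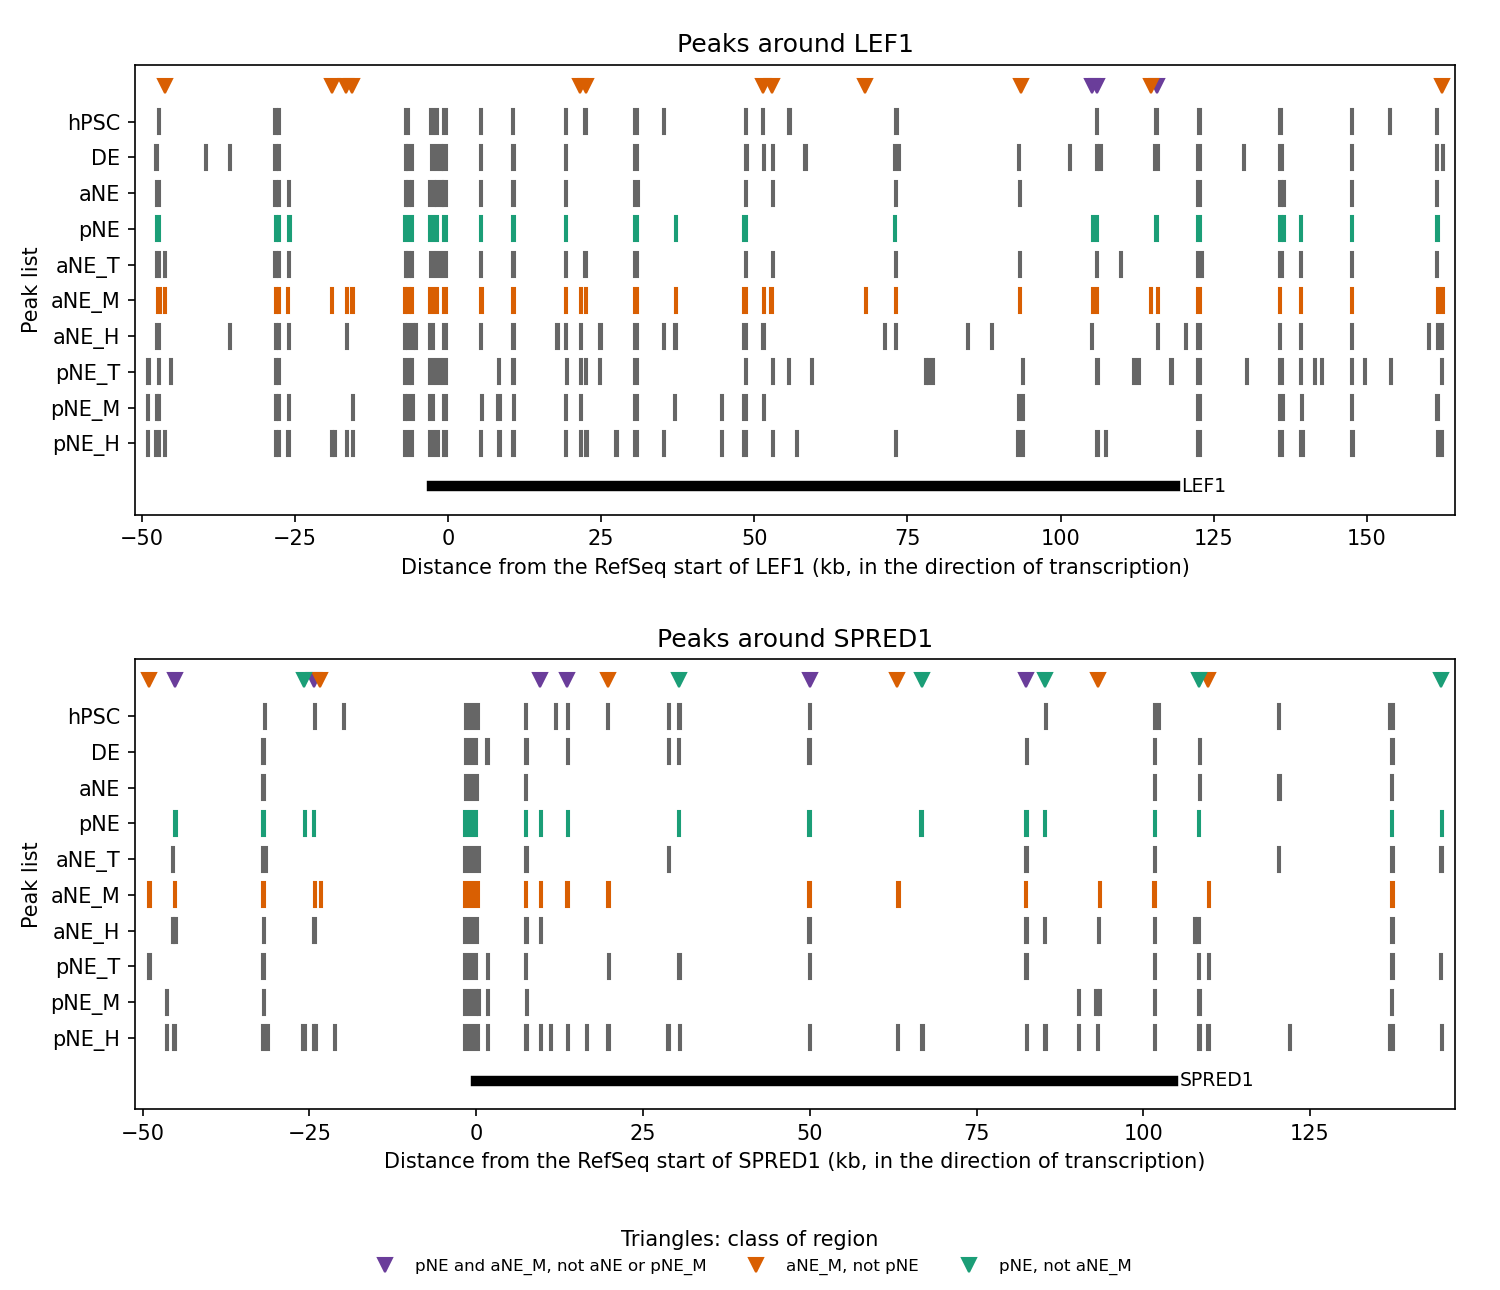
Peaks of each list (rows) by distance from the RefSeq start (horizontal, kb) around LEF1 and SPRED1, with bars at least 0.35 kb wide and the gene as a black bar. Triangles at LEF1 mark the 12 aNE_M regions absent from pNE and 3 crossover regions. At SPRED1 they mark 6 crossover regions, 6 regions open in pNE and not aNE_M and 6 of the reverse.

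Over all genes by nearest end, 3821 had more pNE regions and 7255 more aNE_M regions. The largest excess of pNE regions was at GULP1, an engulfment adaptor, with 21 against 5 (20 and 3 at one size). It was followed by the cadherin CDH10 with 23 against 8 (22 and 7), the scaffold gene SASH1 with 22 against 8 (13 and 10) and HS3ST5, a heparan sulfate enzyme, with 21 against 9 (17 and 7). On the aNE_M side AUTS2 had 33 pNE regions and 64 aNE_M regions (35 and 40 at one size). KIRREL3 had 16 and 43 (14 and 18), the IgLON adhesion genes OPCML 18 and 44 (16 and 27) and LSAMP 20 and 43 (16 and 25), and the lipid kinase gene PIK3C3 21 and 45 (22 and 28). These 9 genes kept their direction at one size, with smaller differences in SASH1, HS3ST5, AUTS2, KIRREL3, OPCML, PIK3C3 and LSAMP.

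The widest crossover regions are far wider than the median of the class, and width is not a measure of signal. More than 1 kb from a gene end, the widest by its narrower peak was chr5:34053133-34054375, inside C1QTNF3, with peaks of 1157 bp in pNE and 1132 bp in aNE_M. It was open in 5 of the other 6 lists. Next came chr20:6533493-6534578, 233 kb from BMP2, which encodes a BMP ligand, with 937 and 1086 bp. The others were chr15:55394701-55395663 in CCPG1, chr17:58647931-58648925 in TEX14 and chr10:117963721-117965033, 39.9 kb from RAB11FIP2. Within 1 kb of a gene end they were chr2:236781722-236782664, 199 kb from the chemokine receptor gene ACKR3 (859 and 943 bp), chr5:178238670-178239587 inside COL23A1, chr14:22466062-22466913 in the T cell receptor alpha and delta locus, chr9:89555888-89556801, 48.2 kb from GADD45G, and chr15:25901678-25902800, 36.6 kb from ATP10A. All 10 were open in aNE_H and pNE_H.

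Crossover promoters were few. Of the 15101 windows, 46 (0.305%) lay in a crossover region with a pNE and an aNE_M peak, and none belonged to a listed gene. Another 32 had no aNE or pNE_M peak in the window but one beside it in the same merged region. The 2 widest by the narrower peak, of those on the chromosomes that the rule for named regions admits, are printed as examples of the class. They are PERCC1 (chr16:1430828-1431127, plus strand), a gene linked to enteroendocrine cells of the gut, with peaks of 731 bp in pNE and 585 bp in aNE_M, and CDYL (chr6:4705888-4706187, plus strand), a chromodomain corepressor, with 430 and 448 bp. Capitals mark the SOX match in CDYL.
PERCC1: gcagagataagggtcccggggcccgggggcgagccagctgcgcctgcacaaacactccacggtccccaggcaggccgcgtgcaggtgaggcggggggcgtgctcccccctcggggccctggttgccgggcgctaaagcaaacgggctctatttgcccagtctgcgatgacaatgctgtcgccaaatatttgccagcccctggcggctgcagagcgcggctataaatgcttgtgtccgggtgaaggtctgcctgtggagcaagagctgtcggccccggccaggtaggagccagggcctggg
CDYL: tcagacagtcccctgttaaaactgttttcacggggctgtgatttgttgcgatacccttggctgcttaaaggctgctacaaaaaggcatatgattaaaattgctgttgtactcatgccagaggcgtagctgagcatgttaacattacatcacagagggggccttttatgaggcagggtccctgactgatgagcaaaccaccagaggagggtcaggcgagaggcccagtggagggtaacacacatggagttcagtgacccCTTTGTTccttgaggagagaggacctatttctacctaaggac

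The 46 promoters had a median GC content of 52.8%, against 63% over all 15101. Motifs were searched on both strands as exact letters: AGGTCA (the core site of nuclear receptors), a direct repeat of AGGTCA with 5 bases between the copies (DR5, which contains that core site), CTTTGA (TCF/LEF), TAATCC (OTX), TGATTGAT (HOX and PBX), ATGCAAAT (POU octamer) and AACAAAG (SOX). An OTX match was in 19.6% of the 46 and 5.38% of all promoters, and a SOX match in 15.2% and 4.04%. A nuclear receptor core site was in 13.0% and 11.7%, and a TCF/LEF match in 8.70% and 10.8%. HOX and PBX matches were in 0 of the 46 and 0.430% of all, POU octamers in 0 and 1.69%, and DR5 in none of either. The OTX and SOX motifs are rich in A and T, as the 46 promoters are beside the rest. The TCF/LEF, HOX and PBX, and POU octamer motifs are also rich in A and T. HOX and PBX matches and POU octamers are too rare over all promoters for 46 windows to show a difference. Of the 46, IQCJ and IQCJ-SCHIP1 have 1 identical window, which held a TCF/LEF match. Promoters shared with pNE_M and not aNE had a median GC content of 53.3%, with OTX matches in 8.87% and SOX matches in 6.45%. The part of base composition was not tested.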

How the data were processed

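The deposited lists, 1 for each population, give where each peak starts and ends and no score, count or signal. The authors' processing used hg38, Bowtie2, MACS2, bedtools and deepTools, per the submitters' processing notes. The peak threshold and the way the 3 libraries of a population were combined are not given in the sources used here, and either can change all overlaps. A list belongs to the population named in its title.

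Peaks of the 10 lists on chromosomes 1 to 22 that shared 1 bp or more were joined into regions. Gene positions came from a RefSeq table (GRCh38.p14) without strand, promoter sequences from a RefSeq table with strand. Regions were assigned to the nearest gene end, and counted within 50 kb of each of 177 listed genes. Of 180 genes 3 lie on the X chromosome and were not used, and CRIPTO was matched through TDGF1. The members and lists were chosen with earlier results of these data known. Named genes are the 4 of each list with the most crossover regions within 50 kb, the 10 genes with the most by nearest end, the 10 with the highest share among those with at least 20 regions, the 5 genes with the largest difference in each direction, and the 5 regions on each side of 1 kb from a gene end with the widest narrower peak. Of the genes so named, 1 is not reported here. Chromosome 8 and regions covered to under 50% by either list were left out of the last.

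Alternatives were the widest 162041 peaks of each list, as many at random, the upper 50% by width, coverage of at least 50% of a region, windows of 500 bp, regions over 1 kb from gene ends, windows of 10 kb around genes, and a merge of 4 lists. A value without a test was read as moved outside its 95% Wilson interval, a count beyond a factor of 1.5. On 40000 simulated regions the merge and classes were recovered with 0 errors. The work used Python 3.11.15 (pandas 2.3.3, numpy 2.4.6, statsmodels 0.14.6, scipy 1.17.1) and, for plots, matplotlib 3.10.9.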

Additional observations from a re-analysis of the deposited data

Results flagged for a closer look

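The X chromosome lay outside the comparisons. There, 511 of the 5300 regions shared by pNE and aNE_M were open in neither aNE nor pNE_M, or 9.64% (Wilson 95% interval 8.88% to 10.5%), and the Jaccard index of pNE and aNE_M was 0.674. It was singled out because it is a signal in data that the report did not use, and no population served as its control.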

How the results depend on the processing

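Most values in this paragraph are counts, shares or Jaccard indices, which cannot reverse in sign. The signed value, the median difference at midbrain and boundary genes, fell to 0 in the upper 50% and in 10 kb windows. There the medians of the list and of all genes were both 0, so it could not turn negative. In the upper 50%, 35% of midbrain and boundary genes had at least 1 crossover region, against 36.6% of all genes. In 10 kb windows it was 45% against 29.4%. Some comparisons given above did turn at one list size, among them pNE_H against all regions. The Jaccard index of pNE and aNE_M (0.670) was 0.473 with random peaks, 0.665 in the upper 50% by width, 0.528 when peaks had to cover at least 50% of a region, 0.684 with 500 bp windows and 0.645 away from gene ends. Shared regions numbered 99444 with random peaks, 79592 in the upper 50% and 98066 with 50% coverage. Crossover regions numbered 10007 among the widest peaks at one size and 8043 in the upper 50%. Their share of shared regions was 8.11% by width, 13.4% with random peaks, 10.1% in the upper 50%, 19.3% with 50% coverage, 9.96% with 500 bp windows, 11.7% away from gene ends and 10.7% when 4 lists were merged. Their share open in aNE_H was 73.9% by width, 61.1% with random peaks, 68.3% in the upper 50% and 68.2% with 50% coverage; in pNE_H it was 40.7%, 39.2% and, with 50% coverage, 62.7%. Regions in pNE and not aNE_M numbered 54737 with random peaks, and 17102 in the upper 50%, where the reverse numbered 23081. The median share at midbrain and boundary genes minus that of all genes, 1.62 points, was 3.63 with random peaks, 0 in the upper 50%, 4.08 away from gene ends and 0 in 10 kb windows. In all of these alternatives the median of all genes was 0, against 2.22% as deposited. The median of the list was 3.85% as deposited, 3.63% with random peaks and 4.08% away from gene ends. Random and upper 50% lists hold fewer peaks by construction; for the other moves the cause was not tested. Of 60 values of single named genes under alternatives, 37 stayed within a factor of 1.5 and 23 moved.

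No paired analysis was possible because the lists hold no value per library, and leaving out a replicate was not run for the same reason. Read depth is unknown, so a region without a peak is not shown to be closed.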
